A study of Mus musculus with 8 samples.

Results

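A20, encoded by Tnfaip3, and the proteins that act with it remove or rebuild ubiquitin chains in the pathway that leads from Toll-like receptors to NF-κB. The group described here holds 9 genes, listed by name for the roles of their proteins when earlier results of these data were already known: Tnfaip3, its binding partners Tnip1, Tnip2 and Tnip3, the adaptor and ligase genes Tax1bp1, Itch and Rnf11, and the deubiquitinase genes Cyld and Otud7b. All 9 have a row among the 23143 gene symbols of the deposited count table, and all 9 averaged more than 100 normalized counts. They were followed in RAW264.7 cells, a virus-transformed mouse macrophage line, which were either left untreated (0 min) or given 100 ng/ml of LPS, a constituent of the outer membrane of bacteria such as E. coli, for 15, 30, 45, 60, 75, 90 or 120 min. Each time is represented by 1 library of RNA depleted of ribosomal RNA, which the labels call both total RNA and cytoplasmic. No difference between times therefore has a replicate check, and all intervals below cover counting error only.

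Ligands of Toll-like and cytokine receptors cause adaptor proteins such as RIPK1, TRAF6 and NEMO to be decorated with ubiquitin chains that serve as platforms for the kinases TAK1 and IKK. IKK then marks the IκB proteins for destruction and so releases NF-κB. A20 trims such chains and can attach other ones that lead to degradation, CYLD cuts chains without attaching new ones, and the Tnfaip3 gene is itself a well known target of NF-κB, which makes A20 a feedback brake. In bulk RNA, more cells that express a gene cannot be told apart from more RNA per cell.

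The libraries held 100250892 to 159077286 counted reads, and counts were divided by median-of-ratios size factors of 0.71 to 1.23 to give normalized counts. The ribosomal precursor Rn45s took 8.18% to 9.11% of the counts at 0, 30, 60 and 120 min but 12.96% to 20.5% at 15, 45, 75 and 90 min, so the libraries fall into 2 sets by this measure. All 8 macrophage markers examined, Cd68 and Csf1r among them, had at least 4411 counts in every library, whereas the T cell, B cell and neutrophil markers in the table had at most 16 and the epithelial and fibroblast markers Epcam, Krt18, Col1a1 and Col1a2 had 0. Of the dendritic cell markers, Flt3 had at most 2 counts and Zbtb46 had 75 to 238. A gene was called higher or lower than in the 0 min library when the log2 ratio lay beyond 0.5 and an exact negative binomial test gave an unadjusted p-value under 0.05, with the spread between the libraries estimated from all 8 as if they were replicates. The test compares libraries and not conditions.

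Promoter sequence was searched for a motif of NF-κB, the factor at the end of the pathway. RefSeq promoter windows (GRCm38.p6), which run from 250 bases before the annotated start to 50 bases after it, were matched for 6 of the 9 genes in 8 windows, and Itch, Rnf11 and Otud7b were not matched. The 10-base NF-κB consensus motif was searched on both strands. It occurred in 5 of the 8 windows, each of a different gene, and in 8.46% of all 32851 windows of that length. A stricter form, GGGANNTTCC, is contained in the consensus and was present in 1.47% of all windows, among the members only in the one of Cyld. The stretches around the matches are given 5′ to 3′ along each gene's strand, with the matched bases in capitals, and for Tax1bp1, whose match lies after a start site, the match alone. Tnfaip3, Tnip1 and Tnip3 were called higher after LPS, whereas Tax1bp1 and Cyld, which also hold a match, were not called.
Tnfaip3, chr10:19015388-19015560, minus strand: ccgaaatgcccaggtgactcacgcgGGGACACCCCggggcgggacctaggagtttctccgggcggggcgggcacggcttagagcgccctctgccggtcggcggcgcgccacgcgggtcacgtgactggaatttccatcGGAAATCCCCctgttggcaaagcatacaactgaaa
Tnip1, chr11:54962962-54963023, minus strand: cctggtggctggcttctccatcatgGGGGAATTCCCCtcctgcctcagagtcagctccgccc
Tnip3, chr6:65590319-65590378, plus strand: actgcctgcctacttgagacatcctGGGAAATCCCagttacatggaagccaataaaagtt
Tax1bp1, chr6:52714199-52714208, plus strand: GGGGACTCCC
Cyld, chr8:88696848-88696907, plus strand: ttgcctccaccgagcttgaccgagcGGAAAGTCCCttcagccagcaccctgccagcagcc

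In the Tnfaip3 stretch the matches begin 125 and 12 bases before the start site, and a second annotated start of the gene (chr10:19011914-19012213) had none. In Tnip1, 3 overlapping matches form a palindrome that begins 58 bases before the start on which the window was built. The match of Tnip3, which is not a palindrome, begins 54 bases before its start. The match of Cyld (chr8:88696873-88696882) begins 155 bases before the start of its window, which lies inside the gene, and overlaps the first bases of the gene as annotated. Tax1bp1 had a match 34 bases after the second of its annotated starts, and the Tnip2 window (chr5:34513930-34514229) held none. A match is a description of the letters, and binding was not measured here.

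Tnfaip3 (gene 21929, chr10:19000910-19015410) was the member whose counts differed most from the 0 min library. Its normalized counts were 1632 before LPS and 2529 after 15 min, then 51275 (30 min) and 112779 (45 min), then 35105 (60 min) and 27772 (75 min), and last 52493 (90 min) and 64961 (120 min). The RNA was thus low at rest, reached its highest value at 45 min, was low again at 75 min relative to its neighbours and was high once more at 120 min. The ratio to the 0 min library was 31.4 (95% interval 30.0 to 32.9) at 30 min and 69.1 (66.0 to 72.3) at 45 min. It remained at 17.01 (16.2 to 17.8) in the trough at 75 min and stood at 39.8 (38.0 to 41.7) at 120 min. All 6 libraries from 30 min on were called higher, and the log2 ratio at 45 min, 6.11, lay between 5.92 and 6.23 on the 4 other scales tried. At 15 min the ratio was 1.55 (1.46 to 1.64), which did not pass the test (exact negative binomial test, p = 0.0727). That value passed when the 120 min library was left out of the fit (p = 0.0405 in the same exact test). Among the 10494 genes whose normalized counts averaged 100 or more, the ratio of Tnfaip3 ranked 50th at 15 min, 7th at 30 min and 10th at 45 min, and 26th in the 120 min library.

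The steps between libraries show the same turns. From 30 to 45 min the normalized count of Tnfaip3 rose 2.20-fold (2.18 to 2.22). From 45 to 75 min it fell to 0.246 of its value (0.243 to 0.25), with most of that fall already present at 60 min, where the ratio to 45 min was 0.311. From 75 to 120 min it rose 2.34-fold (2.30 to 2.38). These steps passed the test, whereas the steps from 60 to 75 min (0.791) and from 90 to 120 min (1.24) did not. By the rule that names a gene's course after its significant turning points, Tnfaip3 had an early maximum (45 min), a minimum (75 min) and a second maximum (120 min). After Benjamini-Hochberg adjustment the second maximum was lost, and the first maximum and the minimum remained. This early-maximum pattern, g3, was assigned to 0.807% of the 16967 genes with a count in any library.

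Both the 45 min peak and the 75 min trough come from the set of libraries rich in Rn45s. Within that set (15, 45, 75 and 90 min) the fall from 45 to 75 min is the one given above. Within the other set the count at 60 min was 0.685 (0.676 to 0.693) of that at 30 min, a difference that did not pass the test, and with these 4 libraries alone Tnfaip3 had a single maximum at 120 min and left the g3 pattern. When the 45 min library alone was left out, the first maximum moved to 30 min and the trough at 75 min remained. The part of the Rn45s share in the size of the peak was not tested.

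**Figure D1:**
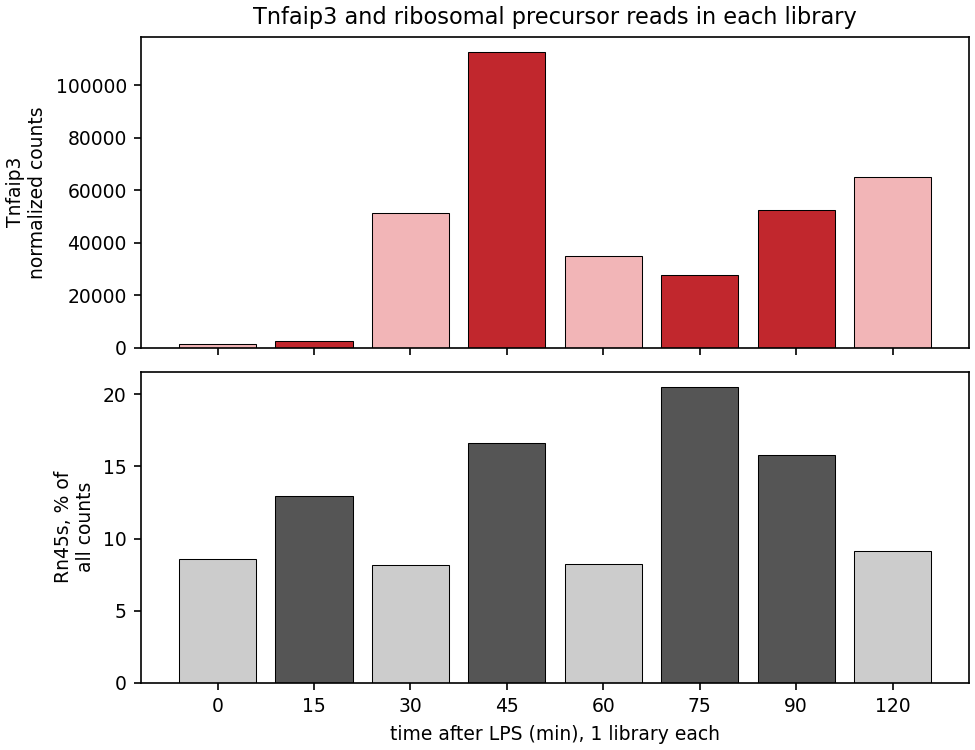
Normalized counts of Tnfaip3 (upper bars) and the percentage of all counts taken by the ribosomal precursor Rn45s (lower bars) in each library, with dark bars for the libraries of the Rn45s-rich set. The 45 min library has the highest Tnfaip3 value, 112779, and an Rn45s share of 16.6%, while the 30 and 60 min libraries hold 51275 and 35105 Tnfaip3 counts at Rn45s shares of 8.18% and 8.27%.

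The Tnip genes encode A20-binding proteins, and their 3 RNAs took different courses. Tnip1 (gene 57783, chr11:54910787-54962956) had, in time order, normalized counts of 8561, 8915, 9374, 11431, 16039, 20038, 24445 and 40405. Each library was higher than the one before it, and 120 min, the last time, was highest. The ratio to 0 min was 1.34 for the 45 min library, 1.87 (1.83 to 1.92) for the 60 min library and 4.72 (4.62 to 4.82) at 120 min. All 4 libraries from 60 min on were called higher, and the step from 90 to 120 min, 1.65-fold, passed as well. The call at 60 min was lost with total counts or the spike-in transcripts as the scale, after Benjamini-Hochberg adjustment and with a log2 limit of 1.

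Tnip3 (gene 414084, chr6:65590398-65634040) started from the highest level per length of the group. Its normalized counts from 0 to 120 min, in time order, were 16983, 16974, 19130, 24936, 32068, 36856, 44332 and 41297. The 90 min library was highest, with a ratio to 0 min of 2.61 (2.57 to 2.66), and the 120 min library stood at 0.932 of it, a step that did not pass the test. Calls began at 60 min, as for Tnip1, although the 60 min call was lost on the spike-in scale and with a log2 limit of 1, the 75 min call on the scale of total counts, and both after Benjamini-Hochberg adjustment. Tnip1 and Tnip3 both had a late first maximum, pattern g1, which 7.28% of the genes showed.

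Tnip2 (gene 231130, chr5:34496096-34513979) had, in time order, normalized counts of 3029, 3078, 3235, 3135, 3224, 2692, 2839 and 2931. Its highest library was 1.2 times its lowest, no library passed the test, and the ratio at 120 min was 0.968 (0.924 to 1.01). The ratio of Tnip1 to Tnip2 per length grew from 1.68 at 0 min to 8.20 at 120 min.

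**Figure D2:**
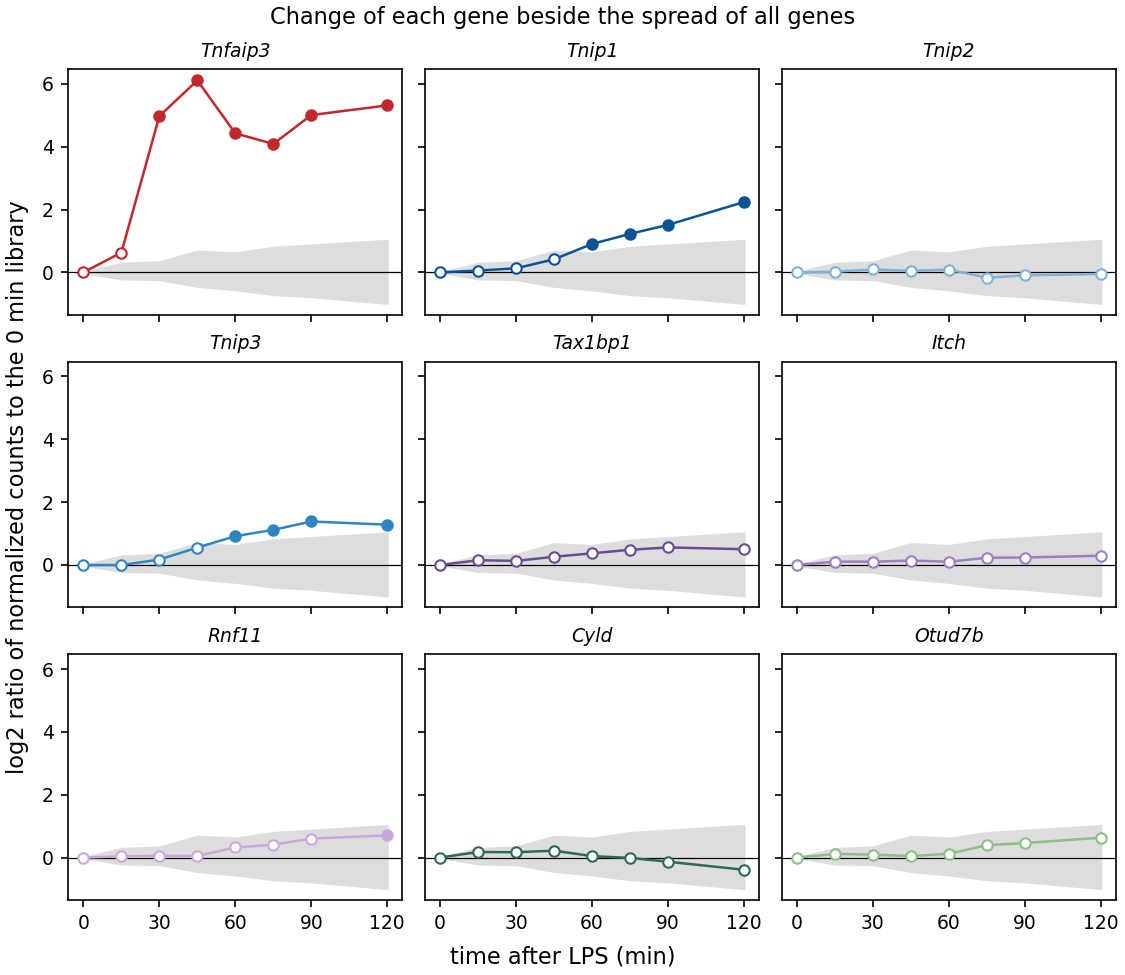
Log2 ratio of normalized counts to the 0 min library (vertical axis) against time after LPS in min (horizontal axis) for each of the 9 genes, with filled circles where the library was called and the grey band holding the central 90% of the log2 ratios of 10494 genes. Tnfaip3 reaches 6.11 at 45 min, Tnip1 reaches 2.24 at 120 min and Tnip3 reaches 1.38 at 90 min, whereas the other 6 genes lie within or close to the band.

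Tax1bp1, Itch and Rnf11 encode the adaptor, the HECT-type ligase and the RING protein that have been found in a complex with A20. Tax1bp1 (gene 52440, chr6:52713692-52766780) had, in time order, normalized counts of 13145, 14592, 14374, 15753, 17005, 18385, 19361 and 18610. Every LPS library was above the 0 min library, with a ratio of 1.47 (1.44 to 1.51) at 90 min, but none was called. Itch (gene 16396, chr2:155133481-155226855) had, in time order, normalized counts of 8098, 8710, 8705, 8935, 8700, 9508, 9547 and 9931. These values span a 1.23-fold range, and no library was called.

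Rnf11 (gene 29864, chr4:109452857-109476505) had, in time order, normalized counts of 4146, 4255, 4308, 4295, 5174, 5500, 6298 and 6754. The 120 min library alone was called higher, with a ratio of 1.63 (1.57 to 1.69) and p = 0.0449 in the exact negative binomial test. That call sat at the limit. It was lost with each of the 4 other scales, with the dispersion trend of edgeR, and when the 30 or the 60 min library was left out, where the exact test gave p between 0.0508 and 0.227. It was also lost after Benjamini-Hochberg adjustment of the exact p-values (0.324) and with a log2 limit of 1.

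The deubiquitinases Cyld and Otud7b, also known as Cezanne, ended on opposite sides of their starting values. Cyld (gene 74256, chr8:88696878-88751946) had, in time order, normalized counts of 6883, 7780, 7739, 8012, 7102, 6823, 6278 and 5257. It was the only member with its lowest value at 120 min, where the ratio to 0 min was 0.764 (0.739 to 0.789), a difference that did not pass the test (exact negative binomial test, p = 0.266). Otud7b (gene 229603, chr3:96104504-96161129) had, in time order, normalized counts of 5866, 6349, 6259, 6067, 6373, 7706, 8077 and 9089. Its ratio at 120 min was 1.55 (1.5 to 1.60), which missed the limit as well (exact negative binomial test, p = 0.0712).

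Of the 9 genes, those called higher than at 0 min numbered 0 at 15 min, where 0.265% of all genes were called higher, 1 at 30 min (all genes 1.04%) and 1 at 45 min (all genes 3.42%). They numbered 3 in the 60 min library (all genes 3.14%), 3 in the 75 min library (4.3%), 3 in the 90 min library (5.24%) and 4 in the 120 min library (7.05%). No member was called lower at any time, while the share of all genes called lower was, in time order from 15 to 120 min, 0.147%, 0.183%, 1.36%, 2.16%, 3.13%, 4% and 6.18%. The median log2 ratio of the 9 genes went from 0.11 at 15 min to 0.63 at 120 min, against -0.01 for the 10494 genes at 120 min. In all, 4 of the 9 genes were called at some time, and 17% of all genes were. All genes in these shares are the 16967 with a count in any library. That set is wider than the 10494 genes to which all 9 members belong, and the share among the 10494 was not computed.

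Levels were compared between genes as rpkm, the reads per kilobase of unique 58-base sequence scaled to the total count of the library. At 0 min Tnip3 (40.8, Poisson 95% interval 40.2 to 41.4) stood first and Tax1bp1 (36.3) second, followed by Tnip1 (23.5), Tnip2 (14), Itch (13.5), Rnf11 (9.24), Cyld (7.46), Otud7b (6.51) and Tnfaip3 (3.21, 3.07 to 3.36). Only the neighbours Tnip2 and Itch had overlapping intervals, and their order turned when the longest annotated transcript was used as the length. At 45 min Tnfaip3 was first with 195 rpkm (194 to 196), ahead of Tnip3 with 52.6. At 75 min Tnfaip3 and Tnip1 lay at 43.4 and 43.7 rpkm with overlapping intervals. At 120 min the order was Tnfaip3 (111), Tnip1 (96.6), Tnip3 (86.3), Tax1bp1 (44.7), Itch (14.4), Rnf11 (13.1), Tnip2 (11.8), Otud7b (8.77) and Cyld (4.96).

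**Figure D3:**
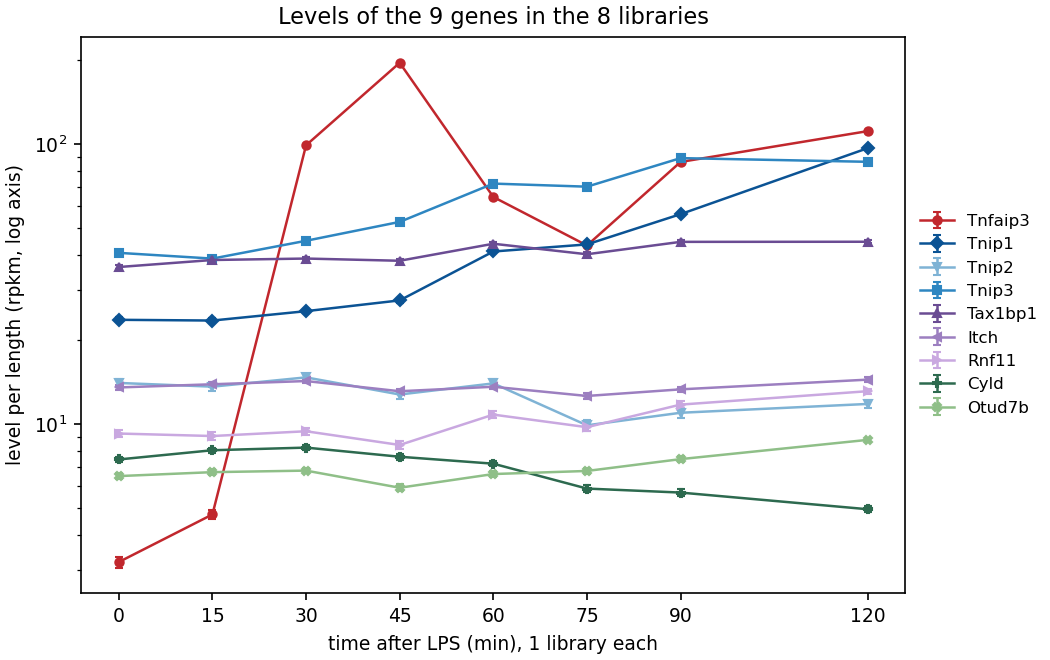
Level per length in rpkm (vertical log axis) of the 9 genes against time after LPS in min (horizontal axis), 1 library per point, with Poisson 95% error bars that are mostly smaller than the symbols. Tnfaip3 moves from the last place at 0 min (3.21) to the first at 45 min (195), Tnip1 and Tnip3 end at 96.6 and 86.3, and the other genes stay between 4.96 and 44.7 rpkm across the libraries.

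The proportions between A20 and its partners differed widely between libraries. Tnfaip3 RNA made up 2.08% of the summed rpkm of the 9 genes before LPS and 54.0% at 45 min, with 37.8% in the 30 min library, 17.9% in the 75 min library and 28.4% in the 120 min library. The ratio of Tnfaip3 to Tax1bp1 per length was 0.0884 before LPS, 5.09 at 45 min and 2.48 at 120 min. That of Tnfaip3 to Itch was 0.238, 14.9 and 7.72 at the same times, and that of Tnfaip3 to Rnf11 was 0.348, 23.2 and 8.49. Against Cyld, the other main deubiquitinase of the pathway, the ratio of Tnfaip3 was 0.430 before LPS, 25.5 at 45 min and 22.4 at 120 min. The share of the 3 Tnip genes together was 50.7% before LPS, 25.7% at 45 min and 49.7% at 120 min. Within it, Tnip3 exceeded Tnip1 by 1.73-fold per length at 0 min and was at 0.893 of Tnip1 at 120 min.

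**Figure D4:**
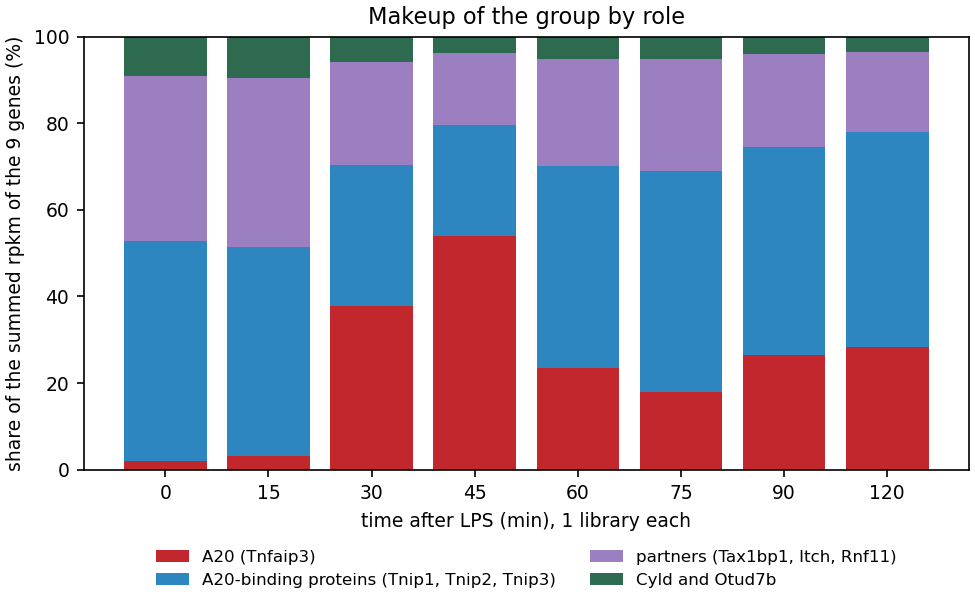
Percentage of the summed rpkm of the 9 genes (vertical axis) contributed by Tnfaip3, by the 3 Tnip genes, by Tax1bp1, Itch and Rnf11, and by Cyld and Otud7b, in each library by time after LPS in min (horizontal axis). The Tnfaip3 part is 2.08% before LPS, 54.0% at 45 min and 28.4% at 120 min, and the part of Cyld and Otud7b is 9.04% at 0 min and 3.50% at 120 min.

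Genes with a course like that of Tnfaip3 were sought by Pearson's r of log2 (normalized count + 1) over the 8 libraries, whose depth and Rn45s content are common to every gene, among the same 10494 genes. The 10 nearest, with r from 0.965 to 0.982, were Tmem88, Nfkbia, Dusp1, Ier3, Dusp2, Nrp, Ccnl1, St18, Fam83e and Gt(ROSA)26Sor. Nfkbia encodes IκBα, the inhibitor that NF-κB also induces, and Dusp1 and Dusp2 encode phosphatases that switch off MAP kinases. Dusp1 had 496 normalized counts before LPS, 37988 at 45 min and 13689 at 120 min, a 45 min ratio of 76.6. Nfkbia had 13858 before LPS, 100498 at 45 min, 50927 at 60 min, where its low between the peaks lay, 55323 at 75 min and 105352 at 120 min. The likeness is one of shape only, since St18 and Gt(ROSA)26Sor reached no more than 1.45 and 1.5 times their 0 min value at 45 min, and Tmem88 had 1 count at 0 min. Of these 10 genes, 4 were also among the nearest 10 with normalized counts in place of log2 values and 3 with Spearman's coefficient. A limit of at least 1000 on the mean only removes genes, here Tmem88, Nrp, Fam83e and Gt(ROSA)26Sor. The other 6 therefore had to stay.

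**Figure D5:**
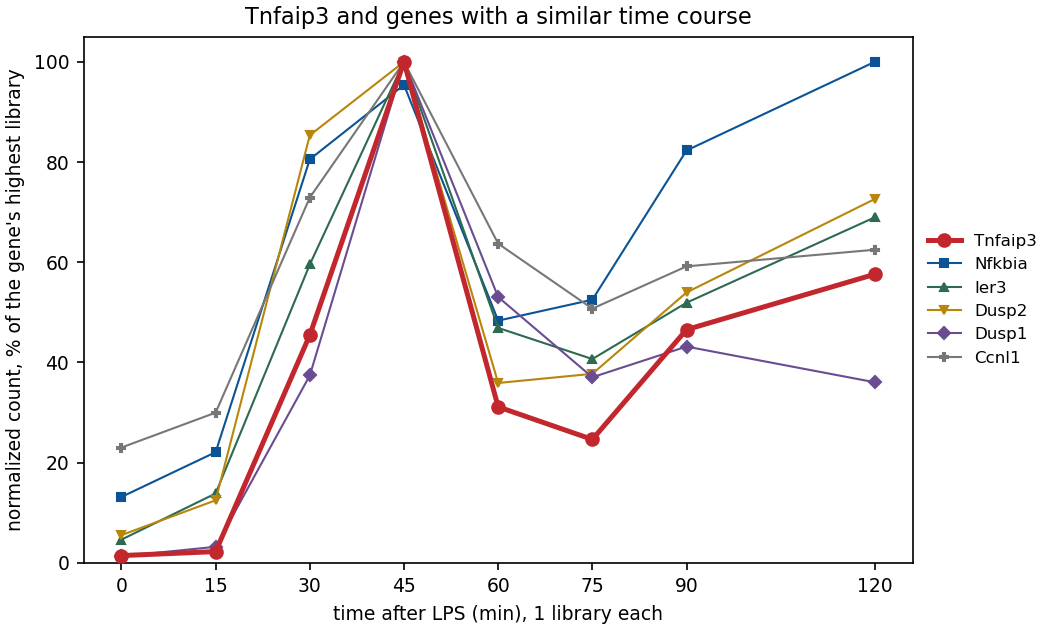
Normalized counts of Tnfaip3 and of 5 of the 10 genes nearest to it, each as a percentage of its own highest library (vertical axis), against time after LPS in min (horizontal axis). Tnfaip3, Ier3, Dusp2, Dusp1 and Ccnl1 are highest at 45 min, and at 120 min Tnfaip3 is at 57.6% of its highest library, Dusp1 at 36.0% and Nfkbia at 100%.

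For Tnip1 the 5 nearest genes were Ikbke, which encodes an IKK-related kinase, Nol10, Vps37c, Gdpd1 and Kctd12, with r from 0.995 to 0.999. Ikbke had 1686 normalized counts at 0 min and 13689 at 120 min. For Tnip3 they were Rheb, H60b, Plek, Ube2d3 and Samsn1, with r from 0.995 to 0.997. Ube2d3, a ubiquitin-conjugating enzyme that works with many ligases, was among them with only 1.40 times its 0 min value at 90 min. Among the members themselves, r with Tnip1 was 0.981 for Rnf11, 0.947 for Otud7b, 0.931 for Tnip3 and -0.874 for Cyld, whereas Tnfaip3 had r = 0.547 with Tnip1 and 0.652 with Tnip3.

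Related genes of the pathway were read in the same way, with lists assembled by function. Among 16 genes of the IKK complex and of signalling proteins upstream of it, 4 were called higher and 1 lower at some time. Of all genes, 17% were called in either direction. Malt1, a paracaspase that cleaves A20, stood at 4.88 (4.77 to 4.98) and Ripk2, the adaptor kinase of the NOD receptors, at 4.54 (4.32 to 4.78) times its 0 min value at 120 min. Tab2 (1.79) and Tab3 (1.70), which carry TAK1 to ubiquitin chains, were called higher at 120 min, and Tab1 (0.538 at 90 min) was called lower. Ripk1, Traf6 and Ikbkg (NEMO), whose proteins bear the ubiquitin chains described above, were not called, with ratios farthest from 1 of 1.26, 1.33 and 0.776. The median log2 ratio of the 16 genes at 120 min was 0.41. The number of them called was 2 after Benjamini-Hochberg adjustment and 2 with a log2 limit of 1. The share of all genes was not computed under these settings.

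Of 14 enzymes that build ubiquitin chains, 3 were called, a share close to the 17% of all genes, and all 3 were higher at 120 min. They were the ligase genes Peli1, at 6.0 (5.78 to 6.23), Birc3, at 3.27 (3.19 to 3.36), and Birc2, at 1.78. The genes of the linear chain assembly complex, Rnf31, Rbck1 and Sharpin, were not called, with ratios farthest from 1 of 0.781, 0.966 and 0.883. The list's median log2 ratio at 120 min was 0.17 over the 13 genes with a mean of at least 100.

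Beyond Cyld and Otud7b, 4 of 23 genes listed with the other deubiquitinases were called, a share like the 17% of all genes. The list includes Spata2, which does not itself encode a deubiquitinase. Otud1 stood at 6.38 (5.29 to 7.74) times its 0 min value at 90 min, from a count of 137, and Yod1 at 2.29 (2.16 to 2.44) at 120 min. Usp2 stood at 0.284 (0.265 to 0.304) and Usp21 at 0.489 (0.457 to 0.523) at 120 min. The remaining 19, with Otulin, Usp7 and Usp15 among them, were not called, and the median log2 ratio at 120 min was 0.25 over the 21 genes of this list with a mean of at least 100.

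Among 8 relatives and adaptors of Itch, 2 were called (all genes 17%). Nedd4l was called at 2.45 (2.01 to 3.0) at 120 min from 141 counts. Nedd4 was called at 90 min alone, at 7.62 normalized counts against 0 at 0 min. It had at most 7 counts in any library, and was no longer called with a mean of at least 10 normalized counts. The median log2 ratio of this list at 120 min was 0.17 over 7 genes. Of 6 receptors and adaptors that bind ubiquitin, as Tax1bp1 does, 2 were called (all genes 17%). Sqstm1, which encodes p62, was called at 5.55 (5.50 to 5.61) at 120 min. Optn was called at 3.27 (1.64 to 7.10) with no more than 38 counts in any library. This list had 1 called gene with the edgeR or DESeq2 dispersion trend and after Benjamini-Hochberg adjustment, where no share of all genes was computed. Its median log2 ratio at 120 min was -0.22 over 4 genes. The close Tax1bp1 relatives Calcoco1 and Calcoco2 were not called, and Calcoco2 had at most 8 counts.

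All 6 listed genes of the IκB family, a selection of that family whose proteins bind NF-κB, were called higher at some time. Of all genes, 17% were called in either direction. The number of them called was 5 with the dispersion trend of edgeR, 5 after Benjamini-Hochberg adjustment and 5 with a log2 limit of 1. For these settings too the share of all genes was not computed. Nfkbiz reached 159 (149 to 170) times its 0 min value at 60 min and Nfkbid 9.36 times at 45 min, while Nfkbia (7.60), Nfkbib (3.74) and Nfkbie (2.26) had their largest ratios at 120 min. The median log2 ratio of the 6 listed genes was 2.03 at 45 min, where that of the 9 ubiquitin editing genes was 0.22. At 15 min 3 of the 6 were already called higher (all genes 0.265%), and none of the ubiquitin editing genes was.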

How the data were processed

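The authors deposited raw counts of reads per gene symbol, not normalized, for 8 libraries, 1 per time. According to the methods, ribosomal RNA was removed with Ribo-Zero, 58-base reads were mapped with Bowtie (version not given in the sources used here) to RefSeq transcripts with at most 2 mismatches, and reads matching several gene symbols were discarded. The submitters' processing notes name CASAVA 1.8.2, DESeq 1.10.1 and mm10. Every 58-base sequence of a member was unique to it among the matched transcripts, except in Cyld (8228 of 8230) and Otud7b (8040 of 8100).

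Size factors, a parametric dispersion (0.0287 plus 0.853 divided by the mean) over the 8 libraries and exact negative binomial tests of the 28 pairs were computed in Python 3.11.15 (numpy 2.4.6, scipy 1.17.1, numba 0.67.0, statsmodels 0.14.6) after the settings of the methods, and were tested on simulated data. The quasi-likelihood test of edgeR needs residual degrees of freedom, which 1 library per group does not leave. Ratios carry exact conditional binomial 95% intervals, and rpkm carries exact Poisson 95% intervals. Lengths are from GENCODE vM21 transcripts matched by accession, gene and promoter coordinates from RefSeq GRCm38.p6. An early maximum lies before 60 min. Named are the 9 members, the nearest 10 genes to Tnfaip3 and 5 each to Tnip1 and Tnip3, and at most 5 called genes per list by log2 ratio. The other list genes named, Ripk1, Traf6, Ikbkg, Rnf31, Rbck1, Sharpin, Otulin, Usp7, Usp15, Calcoco1 and Calcoco2, were picked with their values in view. The members and lists were chosen with earlier results of these data known. Alternatives were total counts, total counts without Rn45s and edgeR TMM factors as the scale, dispersions trended by edgeR 4.0.16 or DESeq2 1.42.0 (R 4.3.3), Benjamini-Hochberg adjustment, a log2 limit of 1, a mean of at least 10, a pseudocount of 1, other lengths and each LPS library left out. The scale of the 2 spike-in transcripts and the 0, 30, 60 and 120 min libraries alone were added after the data were seen.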

Additional observations from a re-analysis of the deposited data

How the results depend on the processing

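With 1 library per time, no result has a replicate check. No paired analysis was possible because each time has 1 library. The number of members called at some time was 4 or 3 under every alternative run, and the gene lost was always Rnf11. The share of all genes called was computed for the main setting only. When each LPS library was left out in turn, 3 to 4 members were called and 8 to 9 kept their pattern, which 7 did with the 0, 30, 60 and 120 min libraries alone, where Tnfaip3 and Rnf11 left theirs. The second maximum of Tnfaip3 at 120 min was lost under Benjamini-Hochberg adjustment. On the spike-in scale the step of Tnfaip3 from 30 to 60 min passed (log2 ratio -0.96). Calls over the 6 pathway lists, of 16, 14, 23, 8, 6 and 6 genes, numbered 22, where 17% of all genes were called. After Benjamini-Hochberg adjustment they numbered 14, and the share of all genes after that adjustment was not computed. Of the 10 genes nearest to Tnfaip3, 4 were shared with the nearest 10 by normalized counts and 3 by Spearman's coefficient. The 6 shared with a mean of at least 1000 were fixed in advance, because that limit only removes genes. Scaling by total counts lowered log2 ratios to 0 min by up to 0.33 (75 min), and the spike-in scale by 0.33 at 60 min. Of 336 log2 ratios to 0 min that were recomputed, 317 stayed on their side of the test, 18 no longer passed and 1 newly passed. Among the settings counted, the pseudocount and the mean of at least 10 could not alter the p-values of these members.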

Other observations

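Genes of the LPS receptor itself, which sits upstream of the A20 brake, and of other macrophage surface proteins were held in the marker list and were singled out here after their values were seen. Cd14, the coreceptor that hands LPS to Toll-like receptor complexes, stood at 3.65 (95% interval 3.62 to 3.69) times its 0 min value at 120 min and was called higher in 4 libraries. Tlr4, the signalling receptor for LPS, stood at 0.486 (0.469 to 0.505) and Fcgr1, a receptor for antibodies, at 0.381 (0.371 to 0.392) at 120 min, and both were called lower there. The other 5 macrophage markers were not called at any time.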
